A study of Mus musculus with 4 samples.

Results

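The proteins 53BP1 (gene Trp53bp1), RIF1, shieldin and PTIP (gene Paxip1) guard the ends of DNA double-strand breaks, and MDC1, RNF8 and RNF168 bring 53BP1 to them. The transcripts of this pathway were followed in activated mouse B cells labelled Aff3-/- and Aff3+/-. The array probes were chosen by name: every gene probe whose accession is a RefSeq transcript of one of 10 genes, namely Trp53bp1, Rif1, Shld1, Shld2, Shld3, Mad2l2, Paxip1, Rnf8, Rnf168 and Mdc1. This gave 12 of the 39429 gene probes on the array, and they cover 9 of the 10 genes, out of 20144 named genes on the array. No probe carries the 1 RefSeq transcript of Shld3, so that gene was not analysed here. Of the 12 probes, 11 were well above background on all 4 arrays, and the second Shld1 probe was not well above background on any.

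Class switch recombination, by which a B cell exchanges the constant region of its antibody heavy chain, passes through double-strand breaks in the switch regions of that locus. MDC1 binds phosphorylated histone H2AX beside a break, RNF8 and then RNF168 add ubiquitin there, and 53BP1 reads that ubiquitin together with methylated histone H4. Once phosphorylated by the kinase ATM, 53BP1 recruits RIF1, which leads to shieldin, and PTIP, which works with the nuclease Artemis. Shieldin consists of SHLD1, SHLD2, SHLD3 and MAD2L2 (also called REV7) and covers single-stranded DNA at the end, so that the end is not cut back and can be joined. In mouse B cells that lack 53BP1 or RIF1, class switching is severely reduced.

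The samples were B cells of mouse spleen, obtained as the fraction without the surface protein CD43, from Aff3-/- mice (2 samples) and Aff3+/- mice (2 samples). AFF3 is a nuclear protein of a family that works with transcription elongation complexes. Both groups were kept for 3 days with LPS (10 ug/mL), a bacterial ligand of TLR4, and IL-4 (10 ng/mL), a cytokine that directs LPS-treated B cells to IgG1 and IgE. The comparison group is heterozygous, so both groups carry at least 1 altered Aff3 allele, and no unaltered mice were among the samples. The labels used here do not state the nature of the allele, the strain, the age or whether the replicates are separate mice, and the p-values therefore measure only the spread between these samples.

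Each sample gave 1 Agilent array read in 1 colour (Cy3), and all 4 arrays lay on 1 slide and in 1 scan. Depending on the array, 24942 to 25862 gene probes lay well above background, and the count of saturated gene spots was 0. Of the probes with at least 5 spots, spots of the same probe varied by an SD of 0.09 to 0.10 (log2) within an array, and having only 4 arrays limits what can be resolved. None of the 7 RefSeq transcripts of Aff3 is the accession of a probe, so the loss of Aff3 was not checked here and each direction rests on the labels.

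The 8 B cell markers used (Cd79a, Cd79b, Ms4a1, Pax5, Ebf1, Cd22, Blk and Cd74) were well above background on every array. None passed the test, but all 8 differences were below 0 (median -0.14, where 45% of all probes were above 0). Their summed signal, in units of each array's 75th percentile, was 392 and 338 in Aff3-/- cells, against 383 and 360 in Aff3+/- cells. All 6 plasma cell markers were above 0 (median +0.11), and none passed. Only Jchain, the joining chain of antibody multimers, was higher without overlap, as were 8.18% of all probes tested. The plasma cell sum was 52.98 and 56.03 in Aff3-/- cells, against 45.84 and 51.35 in Aff3+/- cells. Of the 8 T cell markers 7 were fitted, 3 above 0 and 4 below, and Cd3g was not above background on any array. The T cell sum was 10.1 and 9.73 in Aff3-/- cells, against 10.0 and 9.92 in Aff3+/- cells. Lck and Cd4 make up most of it (mean log2 signal 2.68 and 1.05 in Aff3-/- cells), so it says little of the dimmer genes. Within it Cd3e (-0.11) and Lck (-0.10) stood beside Thy1 (+1.09, unadjusted p = 0.035, adjusted p = 1.00, limma) and Cd8a (+1.01), a probe well above background on 1 of the 2 Aff3+/- arrays. Neither of these last genes overlapped between the genotypes, where 8.18% of all probes tested were higher without overlap. Moreover, Cd8a entered the fit through its Aff3-/- arrays alone. Of the 8 myeloid markers, Csf1r, Itgam, Adgre1 and Cd14 were well above background on all 4 arrays, and Lyz2, S100a8, S100a9 and Fcgr1 on none. The myeloid sum over the 4 fitted was 7.84 and 7.18 in Aff3-/- cells, against 8.63 and 7.44 in Aff3+/- cells. Itgam makes up most of that sum, with a mean log2 signal of 2.84 in Aff3-/- cells, against -2.02 for Csf1r, the next brightest. Of the 6 NK cell markers, Gzma and Prf1 were measured on all arrays and Eomes, Klrb1c, Klrk1 and Ncr1 on none, with a sum of 0.876 and 0.703 in Aff3-/- cells, against 0.881 and 0.772 in Aff3+/- cells. Erythroid and platelet markers (4 of 7 fitted) summed to 0.0903 and 0.0294 in Aff3-/- cells, against 0.0369 and 0.0464 in Aff3+/- cells. Of these, the platelet gene Pf4 was well above background on both Aff3-/- arrays and on neither Aff3+/- array. It entered the fit through the Aff3-/- arrays alone, so no p-value is given for it. Stromal and endothelial markers (4 of 7 fitted) summed to 0.395 and 0.332 in Aff3-/- cells, against 0.457 and 0.372 in Aff3+/- cells. Of these 4, Col1a2 (+0.09) was above 0 and 3 were below. The latter were Cdh5 (-0.61), Pecam1 (-0.16) and Acta2 (-0.36, unadjusted p = 0.031, adjusted p = 1.00, limma). Cdh5 and Acta2 were lower without overlap, as were 11.4% of all probes tested. The part of these markers in the values below was not tested. In such bulk samples, fewer cells of a type and less RNA per cell cannot be told apart.

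The comparison of Aff3-/- with Aff3+/- cells asks whether the transcripts of the end-protection pathway differ between these genotypes. No member probe passed the threshold, and the differences were small. All 11 member probes fitted had a log2 difference between -0.12 (the dimmer Trp53bp1 probe) and +0.09 (Mad2l2), that is, no more than 1.08-fold either way. No probe of the 25116 tested passed Benjamini-Hochberg adjustment with limma (0%), and 494 (1.97%) had an unadjusted p under 0.05, against 0 of the 11 member probes. The smallest unadjusted p of a member probe was 0.38, with an adjusted p of 1.00 for every one of them. The fit's 95% interval of the fold change lay within 1.5-fold either way for all 11, as it did for 68.7% of all probes tested. The intervals do not show that the genotypes are alike, since a change inside these bounds cannot be told from 0 with 2 arrays per genotype.

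**Figure D1:**
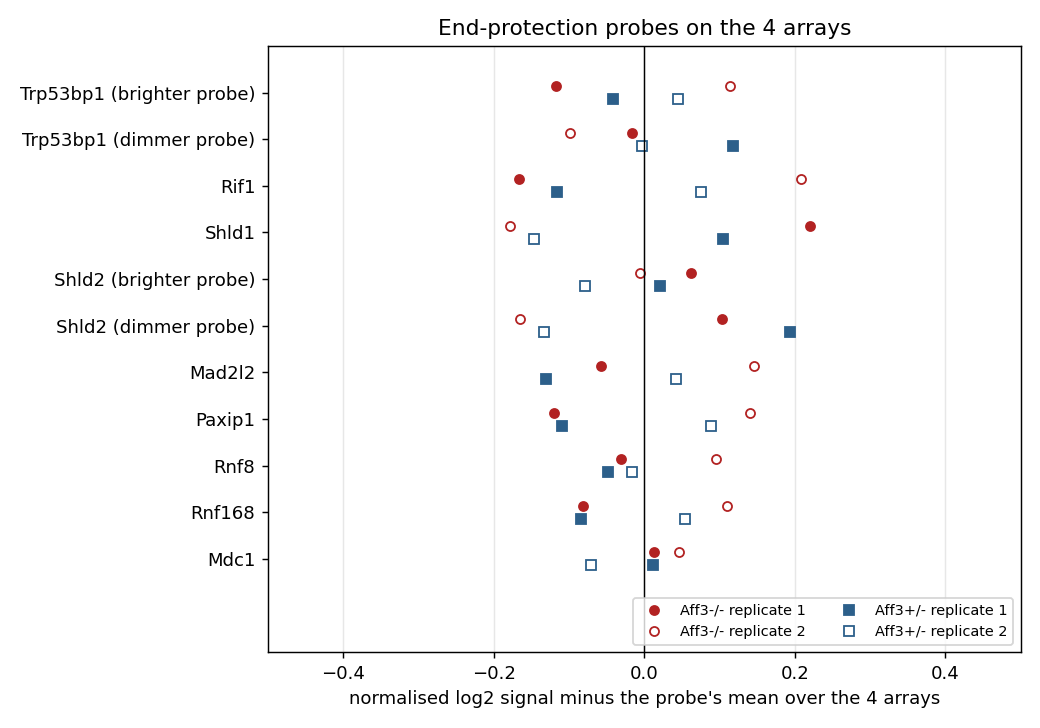
Normalised log2 signal of each of the 11 fitted probes on each array, with the probe's mean over the 4 arrays subtracted (x axis); circles are Aff3-/- arrays and squares Aff3+/- arrays, filled for replicate 1 and open for replicate 2. The circles and squares of a probe overlap for all probes but the dimmer Trp53bp1 probe and Mdc1.

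Trp53bp1, which encodes the scaffold of the pathway, had 2 probes. Signals are given below as log2 of the processed signal relative to the array's 75th percentile. The brighter probe read 0.12 and 0.35 in Aff3-/- cells, against 0.19 and 0.28 in Aff3+/- cells. The Aff3+/- values lay between the Aff3-/- values, and the log2 difference was -0.0027 ± 0.14 (SE), with a value of +0.012 when each array was centred on its median. The interval of the fold change was 0.778 to 1.28. The dimmer probe read -4.12 and -4.20 in Aff3-/- cells, against -3.99 and -4.11 in Aff3+/- cells. Both Aff3-/- arrays were thus below both Aff3+/- arrays, but the gap between the nearest 2 was small, and the difference of -0.12 ± 0.12 did not pass (unadjusted p = 0.38, adjusted p = 1.00, limma). Lower values without overlap were found for this 1 member probe of 11, and for 11.4% of all probes tested. The raw processed signal of this probe was 76.0 and 70.0 intensity units in Aff3-/- cells and 80.6 and 78.6 in Aff3+/- cells.

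Rif1, whose product binds phosphorylated 53BP1 and leads to shieldin, had 1 probe. It read 0.08 and 0.45 in Aff3-/- cells, against 0.13 and 0.32 in Aff3+/- cells. The lowest and the highest of the 4 values were both Aff3-/- arrays. The difference of +0.04 ± 0.18 (SE) was smaller than the gap between the arrays of either genotype, and the fold change had an interval of 0.745 to 1.42. Paxip1 encodes PTIP, the other partner of phosphorylated 53BP1, which also belongs to histone methyltransferase complexes. It read -3.33 and -3.07 in Aff3-/- cells, against -3.32 and -3.12 in Aff3+/- cells. Here too the Aff3-/- arrays enclosed the Aff3+/- ones, with a difference of +0.02 ± 0.15 that was -0.03 after normexp background correction.

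Of the shieldin genes, Shld1, Shld2 and Mad2l2 could be followed. Shld1 encodes the subunit that binds the end of SHLD2. Its measurable probe read 0.70 and 0.30 in Aff3-/- cells, against 0.59 and 0.34 in Aff3+/- cells. These 2 Aff3-/- arrays stood 1.32-fold apart, the widest gap within a genotype among the member probes, and the genotype difference was +0.04 ± 0.19 (SE). The other Shld1 probe had between 1.60 and 1.99 intensity units on the 4 arrays and gave no difference. Shld2 encodes the subunit that binds single-stranded DNA. Its brighter probe read 0.07 and 0.0030 in Aff3-/- cells, against 0.03 and -0.07 in Aff3+/- cells. The difference was +0.06 ± 0.12, with overlapping arrays, and it was -0.0014 after normexp. The dimmer probe read -1.81 and -2.08 in Aff3-/- cells, against -1.72 and -2.05 in Aff3+/- cells. Its difference was -0.06 ± 0.18, so the Shld2 probes differed in sign, each within its error.

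Mad2l2 encodes a HORMA domain protein that serves in shieldin and in the translesion DNA polymerase zeta. Its difference was the largest above 0 among the 11 member probes fitted, and it did not pass the test. It read 2.67 and 2.88 in Aff3-/- cells, against 2.60 and 2.77 in Aff3+/- cells. The arrays overlapped, since 1 Aff3+/- array was above 1 Aff3-/- array. The difference was +0.09 ± 0.14 (SE; 1.06-fold, interval 0.823 to 1.37, unadjusted p = 0.56, limma).

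**Figure D2:**
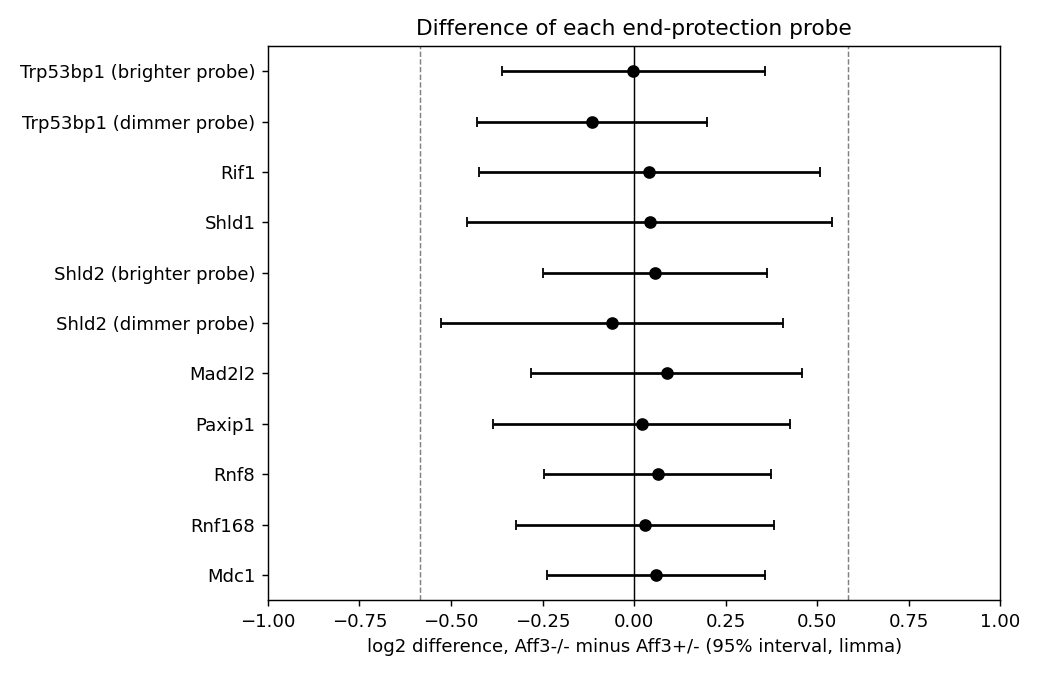
Log2 difference of Aff3-/- minus Aff3+/- cells for each of the 11 fitted probes (x axis) with its 95% interval from limma; dashed lines mark a 1.5-fold change either way. Every interval holds 0 and stays between the dashed lines.

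The ubiquitin branch upstream of 53BP1 had 1 probe per gene. Rnf8, the ligase that MDC1 recruits, read 1.69 and 1.82 in Aff3-/- cells, against 1.67 and 1.71 in Aff3+/- cells. Its values overlapped, with a difference of +0.06 ± 0.12 (SE). Rnf168, the ligase that marks histone H2A for 53BP1, read 0.60 and 0.79 in Aff3-/- cells, against 0.59 and 0.73 in Aff3+/- cells. The genotypes again overlapped, and the difference was +0.03 ± 0.13. Mdc1, the adaptor on phosphorylated H2AX, read 0.62 and 0.65 in Aff3-/- cells, against 0.61 and 0.53 in Aff3+/- cells. Both Aff3-/- arrays were above both Aff3+/- arrays, by 0.0022 between the nearest 2. The difference of +0.06 ± 0.11 (interval of the fold change 0.848 to 1.28) did not pass (unadjusted p = 0.62, limma). Higher values without overlap were found for this 1 member probe of 11 and for 8.18% of all probes tested, and with quantile normalization the Mdc1 arrays overlapped.

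The gaps between arrays of 1 genotype were set beside the differences between genotypes. A gap between single arrays tends to exceed a difference between means of arrays even where the genotypes do not differ, so the counts for the members are read only beside those for all probes. The gap between the 2 Aff3-/- arrays exceeded the genotype difference for 9 of the 11 member probes, and the gap between the 2 Aff3+/- arrays did so for 10, with both doing so for 8. Over all probes tested these shares were 77.5%, 72.4% and 62.0%. The median gap of the member probes was 0.20 between the Aff3-/- arrays and 0.14 between the Aff3+/- arrays, while the median absolute genotype difference was 0.06. The same 3 medians over all probes were 0.20, 0.16 and 0.07. The gaps of the 2 genotypes were not independent, since samples with the same replicate number deviated together across probes (r = 0.56). From replicate 1 to 2, Rif1 rose in both genotypes (+0.38 in Aff3-/- and +0.19 in Aff3+/- cells), whereas Mdc1 did not (+0.03 and -0.08). The gaps are therefore no clean measure of the spread within a genotype.

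**Figure D3:**
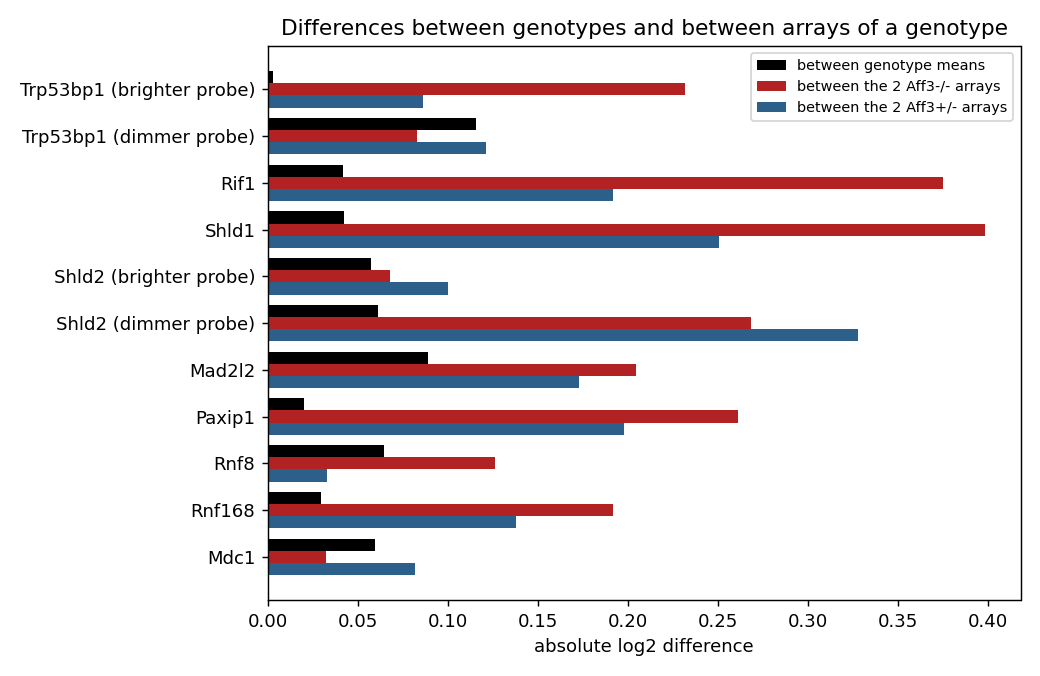
Absolute log2 difference (x axis, from 0) for each fitted probe between the genotype means (black), between the 2 Aff3-/- arrays (red) and between the 2 Aff3+/- arrays (blue). For 8 of the 11 probes both coloured bars are longer than the black bar, as both gaps exceeded the difference for 62.0% of all probes tested.

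In the member probes 8 differences were above 0 and 3 below, with a median of +0.04, where 45% of all probes were above 0 and their median was -0.01. The count above 0 was 8 of 11 with quantile normalization too, where 49.9% of all probes were above 0. It was 7 of 11 after normexp background correction (52.7% of all probes). After median centring, which shifts every probe alike, it was 9 of 11 (51.2% of all probes). The authors' deposited table lacks the brighter Shld2 probe, the measurable Shld1 probe, Mad2l2 and Rnf8, and it holds the Shld1 probe that was not above background. The 7 fitted member probes it shares kept their signs there. Its values are nearly those of the scanner files (correlation 0.9998 to 0.9999 after centring), so this is no independent check. Without Aff3-/- replicate 1 the median was +0.11, and without Aff3-/- replicate 2 it was -0.013, while it was +0.0023 without Aff3+/- replicate 1.

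Genes that act with the members were read from lists of the pathway's partners, each gene by its brightest fitted probe. No gene of the 5 lists passed, either after adjustment over all probes or at an unadjusted p under 0.05 (limma), where 1.97% of all probes reached the latter. The counts above 0 given for each list stand beside 45% of all probes in this fit. That share moved with the processing, to 49.9% with quantile normalization and 52.7% after normexp. For the recruitment of 53BP1 to chromatin, 15 of 16 genes were fitted, 9 above 0 and 6 below, with a median of +0.04. H2ax, the histone variant on which MDC1 lands, was +0.09 ± 0.12 (SE), and Dynll1, a dynein light chain that binds 53BP1, was -0.11 ± 0.13. Dynll1 read -3.943 and -3.947 in Aff3-/- cells, against -3.728 and -3.940 in Aff3+/- cells, so the nearest arrays were almost equal. Of the 15 genes, 1 was lower without overlap and 1 higher, against 11.4% and 8.18% of all probes tested. Fill-in synthesis, in which the CST complex and polymerase alpha-primase act after shieldin, had 6 of 7 genes above 0 and a median of +0.05. The CST subunits Ctc1 (+0.08 ± 0.12) and Stn1 (+0.07 ± 0.13) overlapped between the genotypes. Without Aff3-/- replicate 2 the medians of these lists were -0.05 for recruitment and -0.03 for fill-in, and that of recruitment was -0.0052 without Aff3+/- replicate 1.

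For the partners and remodellers of MAD2L2, 4 of 6 genes were above 0 and the median was +0.01. Trip13, the ATPase that takes MAD2L2 out of its complexes, read 2.24 and 2.68 in Aff3-/- cells, against 2.15 and 2.50 in Aff3+/- cells, a difference of +0.13 ± 0.21 (SE) with overlap. Rev1, a polymerase zeta partner, was -0.04 ± 0.12. Among partners of PTIP, 8 of 10 genes were above 0 with a median of +0.03. Ncoa6, a coactivator of the methyltransferase complex, was +0.13 ± 0.11 without overlap, and Dclre1c, which encodes Artemis, was -0.06 ± 0.14. Higher values without overlap were found for 1 of these 10 genes, and for 8.18% of all probes tested. Leaving out Aff3-/- replicate 1 gave the MAD2L2 list a median of -0.0018, and leaving out Aff3+/- replicate 2 gave it one of -0.03. The PTIP list had a median of -0.02 once Aff3-/- replicate 2 was left out and of -0.01 once Aff3+/- replicate 1 was.

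Opponents of end protection, which promote resection and homologous recombination, had 7 of 8 genes above 0 and a median of +0.03. Rbbp8 encodes CtIP, which starts resection, and had the smallest unadjusted p of the lists. It read 2.29 and 2.18 in Aff3-/- cells, against 2.09 and 2.00 in Aff3+/- cells. Both Aff3-/- arrays were above both Aff3+/- arrays, yet the difference of +0.19 ± 0.12 (SE) did not pass (unadjusted p = 0.18, adjusted p = 1.00, limma). Brca2, a homologous recombination factor, was +0.07 ± 0.11, also without overlap. Higher values without overlap were found for 2 of these 8 genes, and for 8.18% of all probes tested. The median of this list depended on the array left out: leaving out an Aff3-/- array gave +0.13 (replicate 1) or -0.11 (replicate 2), and leaving out an Aff3+/- array gave -0.09 (replicate 1) or +0.15 (replicate 2). Proliferation genes, set beside these lists because repair genes vary with the cell cycle, had 9 of 12 above 0 and a median of +0.04. Their summed signal, in units of each array's 75th percentile, was 138 and 172 in Aff3-/- cells and 137 and 161 in Aff3+/- cells, and its part in the repair values was not tested.

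**Figure D4:**
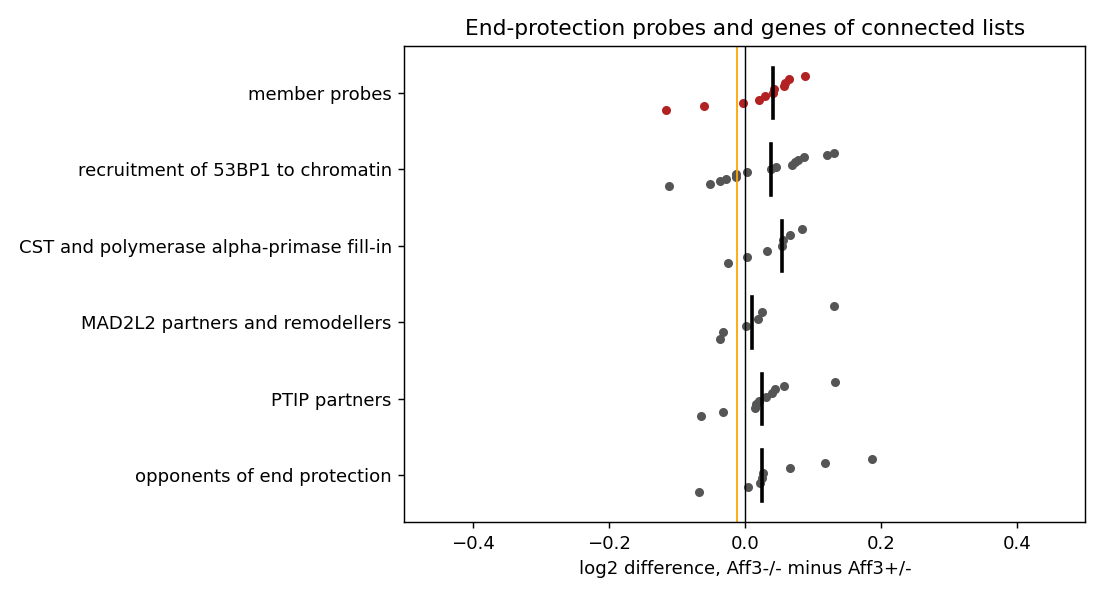
Log2 difference of Aff3-/- minus Aff3+/- cells (x axis) for the 11 member probes (red) and for the fitted genes of 5 lists of partners (grey), 1 point each; thick black bars are medians and the orange line is the median of all probes tested (-0.01). All points lie between -0.12 and +0.19.

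Promoter sequence is a feature that the choice of members did not use. RefSeq windows of 300 bases (250 before to 50 after the start, GRCm38.p6) matched 9 of the 10 genes, Rif1 being the exception, with 12 windows in all. An E2F-type motif, TTCCCGC or TTGGCGC on either strand, was present in 5 of the 12 windows, those of Mad2l2, Paxip1, Rnf8, Rnf168 and Mdc1, and in 6.81% of 32851 windows. The members' windows held a median of 18.5 CpG dinucleotides, against 7 over all windows, and both words contain a CpG. A GC box, GGGCGG on either strand, was present in 8 of the 12 windows and in 35.7% of all. CCAAT on either strand was in 3 windows and in 37.4% of all, and CCGGAAG, an ETS-type word, was in 3 and in 8.86% of all. The GC box and the ETS-type word also contain a CpG, and CCAAT does not. The words were chosen after the windows had been read, and a match describes the letters only. The windows of the 3 ubiquitin-branch genes are printed because all of them hold the E2F-type word, beside that of Trp53bp1, which does not. Each runs 5′ to 3′ on the gene's strand, and capitals mark E2F-type words and GC boxes.
Mdc1, chr17:35841248-35841547, plus strand: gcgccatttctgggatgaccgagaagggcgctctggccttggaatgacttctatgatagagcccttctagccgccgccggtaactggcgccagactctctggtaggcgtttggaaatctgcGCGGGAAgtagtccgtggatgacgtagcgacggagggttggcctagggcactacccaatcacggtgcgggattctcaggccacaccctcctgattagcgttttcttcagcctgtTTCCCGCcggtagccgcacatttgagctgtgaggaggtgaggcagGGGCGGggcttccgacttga
Rnf8, chr17:29614539-29614838, plus strand: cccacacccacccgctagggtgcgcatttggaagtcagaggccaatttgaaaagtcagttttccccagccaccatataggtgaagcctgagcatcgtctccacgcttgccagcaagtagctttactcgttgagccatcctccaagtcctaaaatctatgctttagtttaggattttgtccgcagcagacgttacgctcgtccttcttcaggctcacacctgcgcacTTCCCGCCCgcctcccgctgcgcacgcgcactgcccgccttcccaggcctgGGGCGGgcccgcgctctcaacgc
Rnf168, chr16:32277211-32277510, plus strand: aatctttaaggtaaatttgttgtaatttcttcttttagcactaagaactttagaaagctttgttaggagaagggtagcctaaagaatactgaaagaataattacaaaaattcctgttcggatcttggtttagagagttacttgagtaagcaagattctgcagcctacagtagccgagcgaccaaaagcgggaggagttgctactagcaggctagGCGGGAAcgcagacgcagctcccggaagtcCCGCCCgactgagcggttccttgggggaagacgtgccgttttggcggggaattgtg
Trp53bp1, chr2:121271358-121271657, minus strand: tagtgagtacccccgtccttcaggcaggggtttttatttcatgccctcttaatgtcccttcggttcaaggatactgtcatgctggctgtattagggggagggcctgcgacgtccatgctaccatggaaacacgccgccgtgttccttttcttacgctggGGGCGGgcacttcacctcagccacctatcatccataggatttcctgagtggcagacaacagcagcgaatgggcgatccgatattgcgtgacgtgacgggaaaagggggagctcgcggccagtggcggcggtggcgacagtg
The Mdc1 window holds 2 E2F-type words and 1 GC box, that of Rnf8 holds 1 and 2, that of Rnf168 holds 1 and 1, and that of Trp53bp1 holds 1 GC box. None of these genes passed the test between Aff3-/- and Aff3+/- cells. No probe of the 25116 tested did, so this outcome cannot set windows with the words apart from that without.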

How the data were processed

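Activated spleen B cells of 2 Aff3-/- and 2 Aff3+/- samples, grouped by the labels, were hybridised to Agilent arrays. The reading software was Agilent Feature Extraction 10.7.1.1 per the submitters' processing notes, and per the file headers the deposited processed signal is a background-subtracted, spatially detrended intensity with no normalization between arrays. The authors' deposited value table holds log2 values for 25372 rows, each centred on its median over the 4 arrays, with unstated scaling (correlation with the centred scanner values 0.9998 to 0.9999). Its column medians were -0.04 and 0.02 for Aff3-/- replicates 1 and 2, and 0.13 and -0.03 for Aff3+/- replicates 1 and 2.

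Outlier and control spots were left out (1377 controls per array). Each array's 75th percentile (1324 and 1290 intensity units for Aff3-/-, 1278 and 1355 for Aff3+/-) was subtracted on the log2 scale, and spots of a probe were averaged. Of the probes, 17 lacked a value on an array. The fit took the 25116 probes that both arrays of either genotype showed well above background. It used limma 3.58.1 (R 4.3.3, lmFit, then eBayes, two-sided, Benjamini-Hochberg adjustment over all probes, threshold 0.05, 2 residual degrees of freedom per probe). Its code was run on simulated independent arrays with a spread drawn from the same fit, which does not test the spread of the real arrays. Values after ± are standard errors. Symbols came from RefSeq transcripts of GRCm38.p6 (26581 of 39429 probes). The array design cites an older build, so no probe coordinates are given, and the promoter windows carry coordinates of GRCm38.p6. The scanner files hold no mean signal, so normexp (offset 50) used the median signal. No arrays were identical. The text names every member probe and, for each list of partners, the 2 genes with the smallest unadjusted p. The members and lists were chosen with earlier results of these data known. A B cell marker among those first listed is not reported here.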

Additional observations from a re-analysis of the deposited data

How the results depend on the processing

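In all 14 alternatives run the members were read again. Where all 4 arrays were kept, no member probe passed the adjusted threshold or an unadjusted p under 0.05 (limma). No gene of the lists passed adjustment there, and over all probes 0 did. The count of all probes with an unadjusted p under 0.05 was 270 (eBayes with trend and robust) to 1820 (replicate number as a block). Leaving out 1 array leaves a lone array in 1 genotype, so the p-values of those alternatives are not read here. Slide or scan as a block could not be fitted, because 1 slide and 1 scan held all 4 arrays. The count of member probes higher in Aff3-/- cells without overlap (1) was 0 with quantile normalization and in the authors' deposited table, 2 with median centring, and 2 to 7 when 1 array was left out. The count lower without overlap (1) was 0 with 1 probe per gene and 1 to 4 when 1 array was left out, where a lone array meets that rule more easily. In either direction, 10 and 7 of the 11 member probes did not overlap without Aff3-/- replicate 1 or 2, against 73.0% and 63.2% of all probes. Without Aff3+/- replicate 1 or 2 the counts were 3 and 6, against 46.5% and 57.9%. With all 4 arrays kept, the share over all probes was 18.4% to 21.9%. The median over member probes (+0.04) was -0.013 to +0.11 when 1 array was left out and kept its sign elsewhere. In the authors' deposited table, where the median of all probes was -0.07, the list medians were -0.013 for recruitment, -0.011 for fill-in and -0.016 for MAD2L2 partners. That table holds a different set of probes. The member probes it shares kept nearly the same differences there (Rif1 +0.0412, against +0.0415 in the main fit). Signs of uncalled differences turned in these cases and in those below, and the cause was not tested. With normexp, the brighter Trp53bp1 probe was +0.0060, the brighter Shld2 probe -0.0014 and Paxip1 -0.031. With median centring the brighter Trp53bp1 probe was +0.012, and as the mean of its probes Shld2 was -0.0018. When 1 array was left out, the range was -0.12 to +0.11 for the brighter Trp53bp1 probe, -0.15 to +0.23 for Rif1, -0.16 to +0.24 for Shld1, -0.22 to +0.10 for the dimmer Shld2 probe, -0.013 to +0.19 for Mad2l2, -0.11 to +0.15 for Paxip1 and -0.066 to +0.13 for Rnf168. Samples with the same replicate number deviated together across probes (r = 0.56, a description over probes that are not independent), but 2 pairs do not show that the numbers pair the samples. With the replicate number as a block the smallest unadjusted p of a member probe was 0.20 and its adjusted p 0.86, and the count of all probes with an unadjusted p under 0.05 was 1820 against 494 without the block.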
